A study of Mus musculus with 8 samples.

Results

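Small nucleolar RNA (snoRNA) genes were examined in poly(A) RNA of mouse splenic natural killer (NK) cells. Members were chosen by annotation and by their read total. The set held every gene that the GRCm38 annotation calls a snoRNA and that had at least 20 reads summed over the 8 libraries, which gave 152 of 1507 annotated snoRNA genes and of 54838 gene identifiers in all. By symbol, 35 were C/D genes (Snord), 15 were H/ACA genes (Snora) and 102 had another name, mostly predicted genes (Gm). The hNK group was 4 libraries of NK cells from healthy wild-type FVB/n mice, and the teNK group was 4 libraries of NK cells from MMTV-PyMT mice, which carry the polyoma middle T oncogene behind a mammary promoter and which the study's design calls tumour-bearing. Cells of both groups were sorted as CD45+, CD49b+ and CD3- and were then kept for 12 to 16 h in cytokine-supplemented medium. The sources used here do not give the age of the mice, the strain of the MMTV-PyMT mice, the cytokines or how many animals a library stands for. No label ties a replicate to an animal of its own, so the p-values rest on variation among 8 libraries that may be technical.

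SnoRNAs are short nuclear RNAs that guide the chemical modification of ribosomal and spliceosomal RNA. C/D snoRNAs, named after their C and D boxes, direct methylation of the ribose, and H/ACA snoRNAs, which end in an ACA box, direct the conversion of uridine to pseudouridine. A few, such as U3, U8, U13 and U17, act in the cleavage or acetylation of ribosomal RNA instead of, or besides, these modifications. In mammals most snoRNAs are cut from the introns of host genes, many of which encode ribosomal proteins or translation factors, and are bound by a class-specific set of core proteins. Mature snoRNAs carry no poly(A) tail. The counts here hold the reads on snoRNA genes that came through poly(A) selection. A read from an unspliced host intron cannot be told from one of the snoRNA. Whether the counts follow the pool of mature snoRNA was not tested.

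The sequences below show the 2 box types and the span of lengths on which the results turn. They are printed 5′ to 3′ from the GENCODE M21 transcripts of GRCm38, with capitals for the C box (NTGATGA, starting within the first 20 bases), the D box (CTGA, ending within the last 15 bases) or the ACA that lies just before the 3′ end. The first 5 are C/D genes in order of length, from the short guide Snord104 to Snord17.
Snord104: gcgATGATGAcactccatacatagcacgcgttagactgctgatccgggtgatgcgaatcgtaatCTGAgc
Snord32a: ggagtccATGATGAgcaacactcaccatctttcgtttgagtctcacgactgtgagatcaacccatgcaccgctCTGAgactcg
Snord118: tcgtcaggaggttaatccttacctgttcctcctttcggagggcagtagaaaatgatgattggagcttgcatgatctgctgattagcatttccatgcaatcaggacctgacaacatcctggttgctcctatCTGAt
Snord15a: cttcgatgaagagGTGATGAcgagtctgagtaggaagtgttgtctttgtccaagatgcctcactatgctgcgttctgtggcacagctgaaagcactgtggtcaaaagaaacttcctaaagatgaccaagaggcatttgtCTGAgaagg
Snord17: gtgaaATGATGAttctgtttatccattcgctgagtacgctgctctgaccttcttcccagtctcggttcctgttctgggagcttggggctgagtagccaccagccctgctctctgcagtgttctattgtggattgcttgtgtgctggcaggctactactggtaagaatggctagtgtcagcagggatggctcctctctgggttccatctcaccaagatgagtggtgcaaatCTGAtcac
Snord118 (U8) has no C box letters within that window. The next 3 are H/ACA genes, of which Snora31 rose and the other two fell.
Snora31: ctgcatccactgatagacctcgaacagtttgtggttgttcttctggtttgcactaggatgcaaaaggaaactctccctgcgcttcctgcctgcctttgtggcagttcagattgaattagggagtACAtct
Snora23: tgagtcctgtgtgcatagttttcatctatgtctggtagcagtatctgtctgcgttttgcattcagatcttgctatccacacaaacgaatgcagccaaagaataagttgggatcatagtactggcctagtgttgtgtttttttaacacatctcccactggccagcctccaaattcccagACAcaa
Snora73b: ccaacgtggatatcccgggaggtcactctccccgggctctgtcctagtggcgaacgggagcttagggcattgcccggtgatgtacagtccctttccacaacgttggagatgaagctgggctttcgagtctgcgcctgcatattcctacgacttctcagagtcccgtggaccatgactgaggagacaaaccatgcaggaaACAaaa
The last 2 are predicted genes in introns of Pabpc4, a poly(A)-binding protein gene, which ended in the same ACA and differed by 4 edits, so that they were 96.9% identical.
Gm22154: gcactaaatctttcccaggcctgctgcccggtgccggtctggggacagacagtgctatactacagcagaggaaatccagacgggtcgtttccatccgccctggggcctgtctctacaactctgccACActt
Gm25788: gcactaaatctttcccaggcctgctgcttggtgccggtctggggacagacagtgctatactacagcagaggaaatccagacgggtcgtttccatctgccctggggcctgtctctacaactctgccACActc
Only the given strand was searched. C and D letters together were found in 20.2% of the 1507 annotated snoRNA genes and ACA letters in 43.5%, and 7 genes held both. Among the members, 23 of 35 C/D genes held both C and D letters, 34 of 35 held the D box letters, and 15 of 15 H/ACA genes held the ACA letters. Of the 102 members with another name, 12 held only C and D letters, 57 only ACA letters, 1 both and 32 neither.

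Most members lie in introns of other genes. Snord17 lies at chr2:144265979-144266216 on the minus strand, in an intron of Snx5, a sorting nexin gene. Snord32a lies at chr7:45127382-45127464 on the minus strand, in an intron of the ribosomal protein gene Rpl13a, and Snord15a at chr7:99482785-99482932 on the minus strand, in an intron of Rps3. Snora73b lies at chr4:132352322-132352526 on the minus strand, within Rcc1 and the smaller snoRNA host gene Snhg3, and Snora23 at chr7:110046364-110046547 on the plus strand, in an intron of Ipo7, an importin gene. Snora31 lies at chr14:75847905-75848034 on the plus strand, in an intron of Tpt1. Gm25788 (chr4:123291344-123291474) and Gm22154 (chr4:123293152-123293282) follow each other on the plus strand. No annotated gene of the same strand, small RNA genes aside, encloses Snord104 (chr11:106500993-106501062, plus strand) or Snord118 (chr11:69073427-69073561, plus strand). In all, 143 of the 152 members lie within such a gene, which is protein-coding for 130.

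The hNK libraries held 5202131 to 12419324 reads on genes and the teNK libraries 13111043 to 16209895. Counting error is thus larger for hNK only at an equal share of reads. On the 152 members the reads were 26938, 28681, 7608 and 14295 in hNK and 16422, 9853, 9039 and 12643 in teNK. Levels are given as CPM, counts scaled to library size with TMM factors, and differences as log2 fold changes of teNK over hNK with their standard error (SE). A gene was called where the Benjamini-Hochberg adjusted p of edgeR's quasi-likelihood test over all 13903 genes tested was under 0.05. Of 7 genes listed as NK markers, 6 were called higher in teNK and Eomes was called lower (-0.30, SE 0.07). The summed level of the 7 was 5497 to 6040 CPM in hNK and 9171 to 9371 CPM in teNK. Ptprc, the CD45 gene, gave most of this sum, with means of 3567 CPM in hNK and 5333 CPM in teNK. Some markers of other cells were higher in teNK too, namely 5 of 5 platelet genes, with sums of 17.5 to 41.2 CPM in hNK and 134 to 232 CPM in teNK, and 3 of 3 B cell genes, with sums of 0.159 to 2.80 CPM and 10.8 to 18.2 CPM. The 1 myeloid gene tested, Lyz2, was higher as well, with myeloid sums of 0.165 to 0.915 CPM and 5.27 to 9.87 CPM. Of the T cell genes, Cd3d was higher and Cd3e and Cd3g were not called, with sums of 18.3 to 40.6 CPM and 24.8 to 33.5 CPM. No erythroid gene was tested, with sums of 0 to 0.361 CPM and 0.803 to 3.81 CPM. All B cell, platelet and T cell markers had reads in both groups, and 1 of 4 myeloid and 1 of 3 erythroid markers had none in hNK. Only teNK libraries are described as run over several lanes, and this layout cannot be told apart from the group. The part of these differences in the results was not tested, and fewer cells of a type and less RNA per cell cannot be told apart.

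More snoRNA genes were lower than higher in teNK, and 43 of the 44 called lower had at least 100 bases. So had 52 of the 85 tested members, and this split by length was chosen after the values were seen. Of the 85 members that passed the filter on low counts, 44 were called lower, 7 higher and 34 were not called. Over all genes tested, 25.6% were called lower and 26.4% higher. All teNK libraries lay below all hNK libraries for 34 of the 85 members and above them for 4. Such separation was common, at 22.4% of all genes tested with teNK below and 24.1% with teNK above. The median log2 fold change was -0.74 for the 85 members and -0.02 for all 13903 genes. The fall was by at least 2-fold for 33 members, against 5.80% of all genes, and the rise by at least 2-fold for 3 members, against 8.28%. Members that pass this filter are partly those with reads in the group where they are high, so all 152 members were also tested in a fit that kept every gene with at least 20 reads. There 53 were lower, 11 higher and 88 not called, where 22.5% of 16901 genes were lower and 23.9% higher. The median over the 152 was -0.55. The rule for members used the read total of each gene and not its group, but the set was chosen with earlier results known, so these counts describe it and do not test it.

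The summed level of all 152 members was 2240, 2277, 1255 and 2583 CPM in hNK replicates 1 to 4 and 1081, 626, 726 and 966 CPM in teNK replicates 1 to 4. The teNK libraries all lay below the hNK libraries, and hNK 3 was the lowest of its group. The means were 2089 ± 577 and 850 ± 210 CPM (SD, n = 4), a 2.46-fold lower level in teNK. Snord17 alone gave 29.0% to 36.6% of the members' reads in hNK and 17.2% to 24.4% in teNK. Without it the sum was 2.08-fold lower, and hNK 3 (890 CPM) overlapped with teNK 1 (895 CPM).

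The short C/D genes, which are the classical methylation guides, overlapped between the groups in their summed level. The 28 C/D members under 100 bases summed to 97.4, 166, 119 and 190 CPM in hNK and 166, 99.9, 128 and 165 CPM in teNK. The 2 groups overlapped, with means of 143 ± 42.3 and 140 ± 31.9 CPM (SD, n = 4). None of the 20 that were tested was called lower by edgeR and 2 were called higher, and the median log2 fold change was 0.01. These counts stand beside 25.6% lower and 26.4% higher over all genes tested. A gene that was not called may still have changed. In the fit that tested all 28, none was lower, 3 were higher and the median was 0.03. Over all genes in that fit, 22.5% were lower and 23.9% higher.

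Snord32a, a methylation guide of the Rpl13a gene, was the short C/D gene with the most reads. Its level was 25.2, 53.9, 35.1 and 49.5 CPM in hNK and 52.7, 22.6, 40.2 and 50.7 CPM in teNK. The libraries of the groups covered the same range, and the log2 fold change was 0.02 (SE 0.23, edgeR adjusted p = 0.940), of no fixed sign across the alternatives. Its neighbours in Rpl13a, Snord34 and Snord35a, had log2 fold changes of -0.10 (SE 0.30) and -0.17 (SE 0.28) and were not called, while the Rpl13a gene itself fell by 0.92 (SE 0.11).

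The host 2410006H16Rik, a non-coding gene, carries Snord49a, Snord49b and Snord65. Snord49b had 12.8, 29.0, 18.8 and 32.0 CPM in hNK and 19.1, 11.3, 14.3 and 22.2 CPM in teNK, with overlapping groups. Its log2 fold change was -0.45 (SE 0.24, edgeR adjusted p = 0.125), and without hNK 1, its lowest hNK library, it was called at -0.68 (adjusted p = 0.00684). Snord49a was not called, at 0.28 (SE 0.25). Snord65 had 1.83, 1.83, 1.81 and 1.81 CPM in hNK and 3.36, 2.73, 1.77 and 3.52 CPM in teNK, so that only teNK 3 lay at the hNK level. Its rise of 0.65 (SE 0.25, edgeR adjusted p = 0.0418) was lost in all of the fits that left out 1 library except the one without teNK 3, at adjusted p of 0.0580 to 0.111. The host gene fell by 0.39.

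Snord104, another short guide, had 16.4, 20.3, 15 and 33.6 CPM in hNK and 30.9, 24.6, 25.3 and 33.2 CPM in teNK. hNK 4 lay above all teNK libraries and the other three hNK libraries below them. Its log2 fold change was 0.46 (SE 0.18, edgeR adjusted p = 0.0433), and the call was lost without hNK 1, hNK 2, hNK 3, teNK 1 or teNK 4, at adjusted p of 0.0898 to 0.124.

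Most long C/D genes fell. Of the 7 C/D members with at least 100 bases, 6 were called lower and 1, Snord13, higher, and the median log2 fold change was -1.04. The split at 100 bases was chosen after the values were seen. The summed level of the 7 was 948, 866, 437 and 910 CPM in hNK and 314, 188, 214 and 327 CPM in teNK, so that all hNK libraries lay above all teNK libraries, and the means differed 3.03-fold. Snord17 gave most of this sum. Without it the other 6 genes summed to 128, 141, 72.6 and 150 CPM in hNK and 128, 71.6, 88.4 and 91.3 CPM in teNK, where the groups overlapped and the means differed 1.30-fold.

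**Figure D1:**
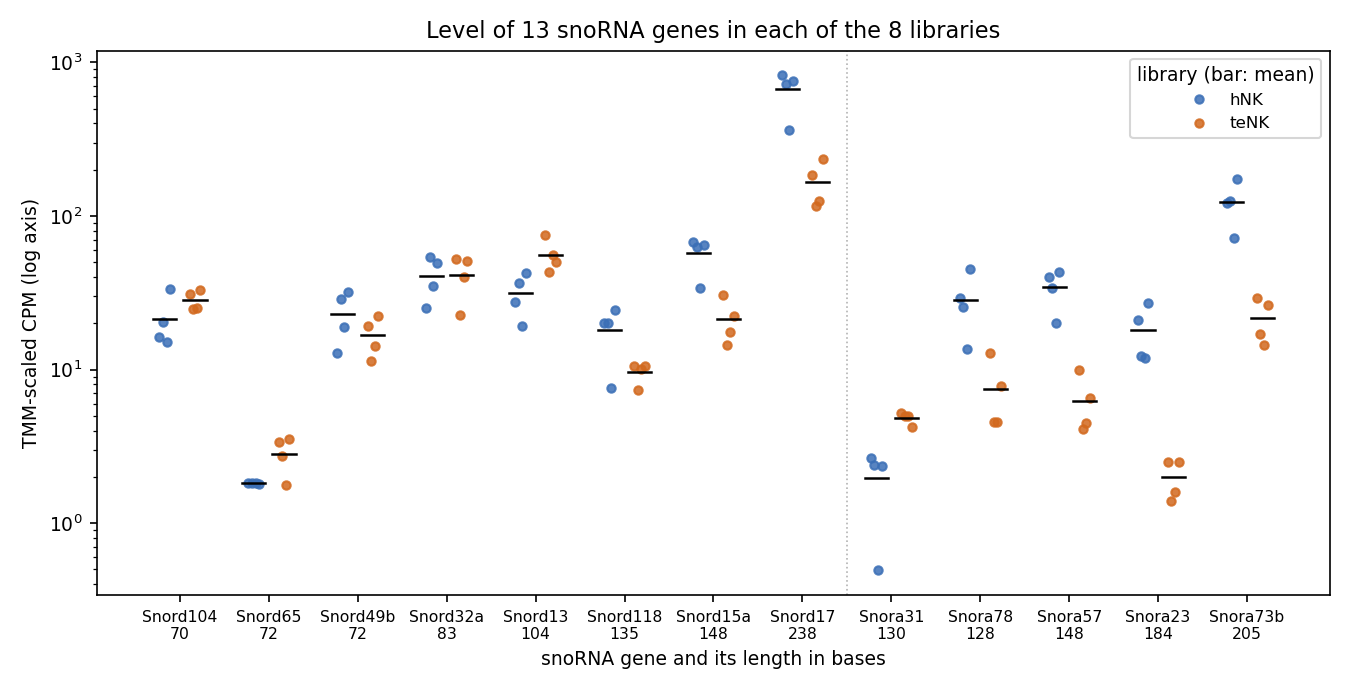
Level of 13 named snoRNA genes in each library, as TMM-scaled CPM on a log axis, with C/D genes left and H/ACA genes right of the dotted line and the length in bases under each name. Points are the 4 hNK (blue) and 4 teNK (orange) libraries and bars their means: Snord32a has nearly equal means, Snord13 and Snora31 are higher in teNK, and Snord17, Snora23 and Snora73b are lower in teNK with no overlap.

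Snord17 had the most reads of all members and, at 1750 CPM per kilobase over the 8 libraries, also the highest level per length. Its level was 820, 725, 364 and 759 CPM in hNK and 186, 116, 125 and 235 CPM in teNK. The lowest hNK library, hNK 3, was still above the highest teNK library, and the level fell by 2.01 on the log2 scale (SE 0.23, edgeR adjusted p = 1.51e-06). Its host Snx5 rose by 0.77 (SE 0.06), from a mean of 319 to 545 CPM. The log2 ratio of Snord17 to Snx5 was 0.13 to 1.49 in hNK and -2.21 to -1.21 in teNK. Another member in Snx5, Gm26165, which ends in ACA letters, fell by 0.83 (edgeR adjusted p = 0.00232).

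Snord15a, a guide in the ribosomal protein gene Rps3, had 67.8, 63.0, 34 and 64.9 CPM in hNK and 30.8, 14.5, 17.6 and 22.4 CPM in teNK. The groups did not overlap, with hNK 3 close to teNK 1, and the level fell by 1.44 (SE 0.21, edgeR adjusted p = 1.96e-05). Its host fell less, by 0.54. Snord118 (U8), which is needed for the processing of large-subunit ribosomal RNA, had 20.1, 20.1, 7.59 and 24.6 CPM in hNK and 10.5, 7.37, 10.1 and 10.5 CPM in teNK. hNK 3 lay within the teNK range and the other three hNK libraries above it, and the level fell by 0.93 (SE 0.23, edgeR adjusted p = 0.00254). The remaining long C/D genes that fell were Snord89 (-1.40), Snord23 (-1.04) and Snord8 (-0.88). Snord89 lies in Gm15832, which fell by 2.88, and Snord8 in Chd8, which rose by 0.18.

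Snord13 (U13), which pairs with small-subunit ribosomal RNA and directs the acetylation of a cytidine there, was the long C/D member that rose. Its level was 27.5, 36.8, 19.1 and 42.3 CPM in hNK and 75.1, 43.4, 55.3 and 50.2 CPM in teNK. All teNK libraries were above all hNK libraries, with hNK 4 and teNK 2 close together, and the log2 fold change was 0.83 (SE 0.18, edgeR adjusted p = 0.00121). At 104 bases it is the shortest member above the split. Snord43, of 108 bases, has a C/D symbol, but the annotation calls it a miRNA, so it was not a member. Snord43 rose too, by 1.13 (SE 0.25, edgeR adjusted p = 0.00137).

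Most H/ACA genes with enough reads to be tested fell. Of the 15 H/ACA members, 9 were tested, 8 of them were called lower and 1, Snora31, higher, and the median log2 fold change was -1.54. In the fit over all 15, 10 were lower, 1 was higher and 4 were not called, with 12 of the 15 fold changes below 0 and a median of -1.29. The summed level was 242, 224, 134 and 320 CPM in hNK and 73.4, 43.7, 38.5 and 58.3 CPM in teNK. All hNK libraries lay above all teNK libraries, with means of 230 ± 76.3 and 53.5 ± 15.7 CPM (SD, n = 4), a 4.30-fold lower level in teNK. Without Snora73b, the member with the most reads, the difference was 3.37-fold and the groups still did not overlap.

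Snora73b (U17), which takes part in the early cleavage of ribosomal RNA, had 121, 125, 72.1 and 173 CPM in hNK and 29.1, 17.1, 14.4 and 26.1 CPM in teNK. No teNK library came near the lowest hNK library, and the level fell by 2.50 (SE 0.22, edgeR adjusted p = 9.47e-08). Its near copy Snora73a (96.6% identical) had 6 reads in all and overlaps an exon of another gene on the same strand, and reads of the 2 copies may have been split or dropped in counting. Both genes that enclose it were not called: Rcc1, a chromatin-bound exchange factor, at -0.18 (SE 0.15), and the snoRNA host gene Snhg3, which is the smaller, at 0.17 (SE 0.15).

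Snora23 showed the largest fall of all tested members. It had 20.9, 12.3, 11.9 and 27.1 CPM in hNK and 2.50, 1.40, 1.61 and 2.52 CPM in teNK. The groups lay far apart, and the level fell by 3.14 (SE 0.27, edgeR adjusted p = 6.79e-08), while its host Ipo7 was not called, at -0.12 (SE 0.07). Snora57, which has no host gene on its strand, fell by 2.45 (SE 0.24), and Snora78, in the snoRNA host gene Snhg9, by 1.91 (SE 0.31). Snora17 (-1.29), Snora21 (-1.54), Snora30 (-0.998) and Snora62 (-0.78) fell less. Snora74a overlaps an exon, had 27 reads in all and was not tested.

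Snora31 went the other way. Its level was 2.66, 2.38, 0.495 and 2.35 CPM in hNK and 5.2, 5.02, 4.98 and 4.2 CPM in teNK. All teNK libraries were above all hNK libraries, hNK 3 was the lowest, and the level rose by 1.21 (SE 0.27, edgeR adjusted p = 0.00123). Its host Tpt1, which encodes a translationally controlled protein, fell by 0.52 (SE 0.08).

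Whether the classes differ could not be separated from length, since H/ACA members had 128 to 205 bases and all but 7 of the C/D members had under 100. Across the 85 tested members, length and log2 fold change had a Pearson r of -0.66 and a Spearman rho of -0.68. Within the 27 tested C/D genes alone they were -0.75 and -0.68. These are descriptions across genes that share the same 8 libraries, with no test. Of the 33 tested members under 100 bases, whatever their class, 1 was called lower (Gm23136, of 99 bases, at -0.92) and 3 higher. Of the 52 with at least 100 bases, 43 were called lower and 4 higher, and all 5 with at least 150 bases were lower. The difference between the classes and the part of length in it were not tested.

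**Figure D2:**
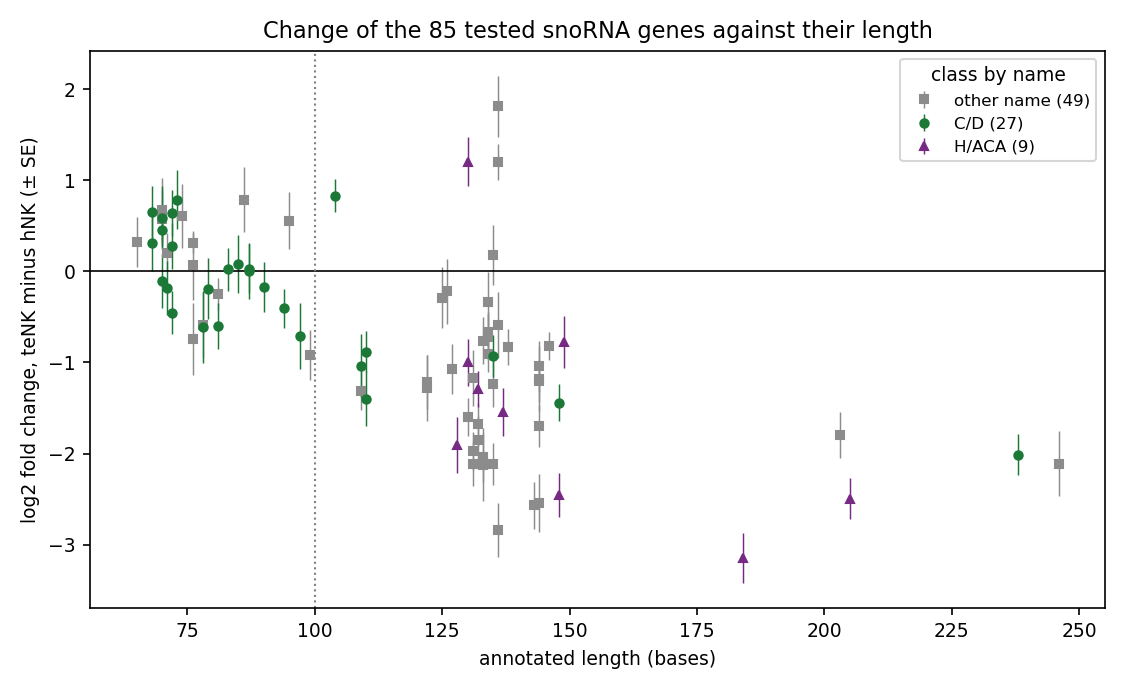
Log2 fold change of teNK over hNK (y axis, bars ± SE from edgeR) against annotated length in bases (x axis) for the 85 tested snoRNA genes, marked by the class their symbol gives, with a dotted line at 100 bases. C/D genes under 100 bases lie around 0, and most genes of either class above 100 bases lie below 0, apart from Snord13, Snora31 and a few predicted genes.

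The members with another name followed the same order. Of the 78 with at least 100 bases, the summed level was 905, 970, 524 and 1106 CPM in hNK and 465, 247, 290 and 363 CPM in teNK, with no overlap and a 2.57-fold lower mean in teNK. The 24 shorter ones summed to 46.5, 52.2, 40.7 and 57.1 CPM in hNK and 62.9, 47.6, 55.6 and 52.9 CPM in teNK, where the groups overlapped. Over all 52 members under 100 bases the means were 192 ± 48.5 CPM in hNK and 195 ± 36.7 CPM in teNK (SD, n = 4).

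**Figure D3:**
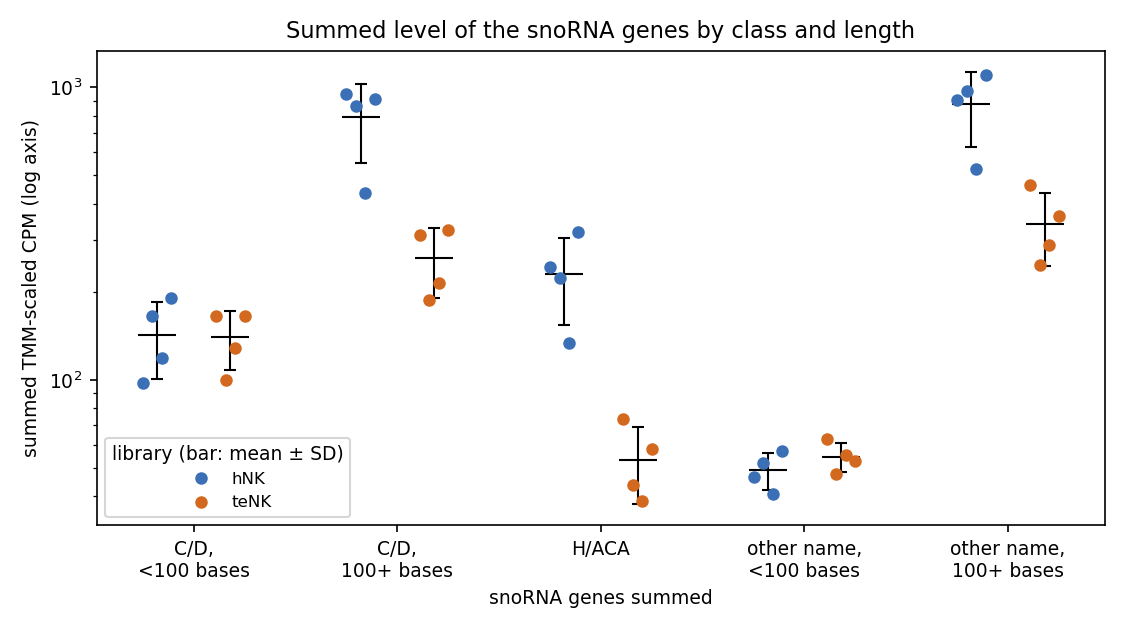
Summed TMM-scaled CPM (log axis) of the snoRNA members by class and length in each library, with means ± SD over 4 libraries as bars. Both sets under 100 bases overlap between hNK (blue) and teNK (orange), and the 3 sets of longer genes do not, with hNK 3 the lowest hNK library in each, but the long C/D genes without Snord17 overlap too, at 72.6 to 150 CPM in hNK and 71.6 to 128 CPM in teNK.

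The class of these genes was also read from their box letters, a choice made after seeing the data. C/D genes by name or letters were then 35 tested, of which 8 were lower and 4 higher, with a median of -0.10. H/ACA genes by name or letters were 40 tested, of which 33 were lower and 3 higher, with a median of -1.26. The 10 tested genes with neither or both kinds of letters held 3 lower and none higher. Of the genes with at least 100 bases, C and D letters and a predicted name, Gm25835 in Eif4a1 fell by 1.70 and Gm23734 in Mgat5 by 1.31.

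Gm22154 and Gm25788, the near copies in Pabpc4 introns shown above, fell by 1.97 and 2.11, while Pabpc4 fell by 0.37. Reads from the 2 cannot be assigned with certainty. Other large falls were those of Gm26493 in Cnot1 (-2.84), Gm25776 in Gtf2a1 (-2.57), Gm25848 in Fbxo45 (-2.54), Gm25989 in Qtrt2 (-2.12) and Gm22422 in Trmt10c (-2.11), all with ACA letters and with teNK libraries below all hNK libraries. For comparison, 22.4% of all genes tested had teNK libraries below all hNK libraries. Gm23442 in Prrc2a, the predicted gene with the most reads, fell by 0.90. Rises were seen for Gm22806 in Cks2 (1.81) and Gm22748 in Odc1 (1.2), both of 136 bases with ACA letters, and for Gm24339 in Cep295 (0.31), a 76-base gene with C and D letters. Near copies were common, in that 41 members had another annotated snoRNA gene of at least 90% identity, and 21 of the 23 tested ones were lower. Over all tested members 44 of 85 were lower, and over those with at least 100 bases 43 of 52. Whether near copies differ from the other members was not tested.

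Members and their host genes changed with little relation to each other. For the 79 tested members with a tested host, the log2 fold changes of member and host had a Pearson r of 0.13 and a Spearman rho of 0.05, given as a description. Of the 44 members called lower, 22 had a host called lower, 6 a host called higher and 12 a host not called. For 1 the host was not tested, and 3 had no host. Of the 66 distinct tested hosts of tested members, 35 were called lower and 8 higher. Over all genes tested these shares were 25.6% and 26.4%. Of the 34 members not called, 21 had a host called lower. Among members in cytosolic ribosomal protein genes, 1 of 13 tested under 100 bases was lower, and 5 of 6 tested with at least 100 bases were lower.

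**Figure D4:**
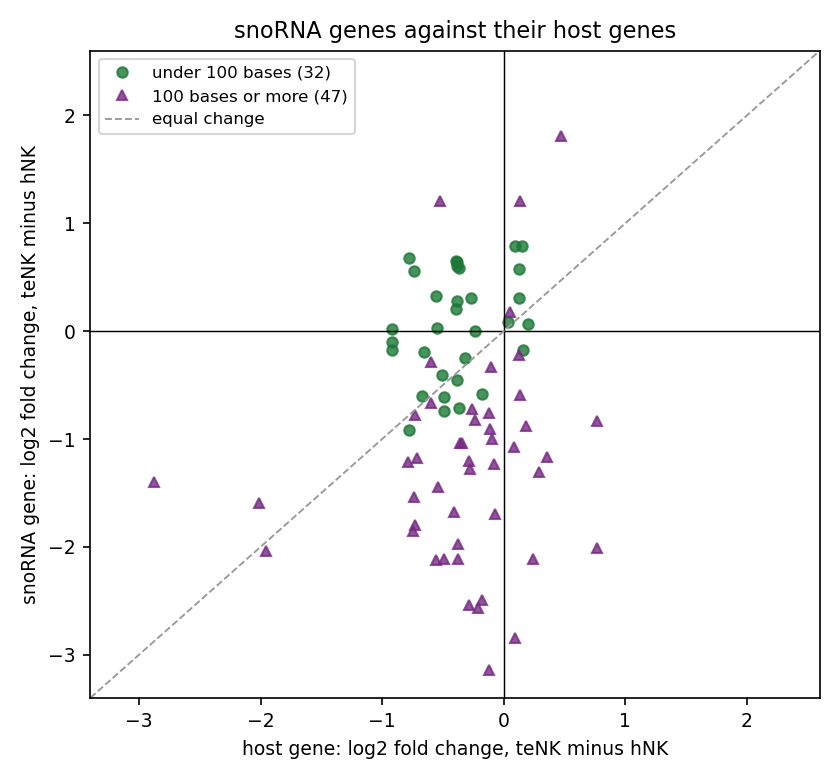
Log2 fold change of each tested snoRNA gene (y axis) against that of its host gene (x axis), teNK over hNK, for the 79 pairs with both tested, with members under 100 bases as circles, longer ones as triangles and a dashed line of equal change. Most triangles lie below the line and most circles above it, and host values lie between -0.92 and 0.20 for circles and between -2.88 and 0.77 for triangles.

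Genes of the proteins that bind, assemble and trim snoRNAs were taken from lists. The counts below stand beside 25.6% of all genes tested called lower and 26.4% called higher. Of the C/D core proteins, the methyltransferase Fbl (-0.63), Nop58 (-0.54) and Nop56 (-0.27) fell and Snu13 was not called (0.02). Of the H/ACA core proteins, Nhp2 (-0.89), the pseudouridine synthase Dkc1 (-0.70) and Gar1 (-0.53) fell and Nop10 was not called (-0.13). Of 13 tested assembly factors, 7 were lower, among them Shq1 (-0.75), Znhit6 (-0.62) and Ruvbl1 (-0.58), and 1, Tcof1, was higher (0.24). Of 19 tested genes of RNA processing and decay, 7 were lower, 2 higher and 10 not called, with a median log2 fold change of -0.11. The exosome subunits Exosc4 (-1.30) and Exosc5 (-0.78) fell most, and the exonucleases Xrn1 (0.57) and Xrn2 (0.20) were the 2 that rose. The debranching enzyme Dbr1, which opens the intron lariats that hold snoRNAs, was not called (-0.11), nor was the helicase Mtrex (0.02).

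Other small RNA classes were set beside the snoRNA genes. On CPM taken over all reads on genes, without TMM factors, snoRNA genes summed to 2190 ± 615 in hNK and 815 ± 194 in teNK (SD, n = 4), and spliceosomal RNA (snRNA) genes to 1324 ± 435 and 443 ± 77.9, without overlap in either class. Genes of small Cajal body RNAs (scaRNA), which guide the modification of spliceosomal RNA, gave 1466 ± 180 and 1400 ± 155 CPM, and their groups overlapped. Of 14 tested scaRNA genes, 6 were lower and 2 higher, with a median log2 fold change of -0.33. Gm22009, which had the highest level of these, rose by 0.43, from a mean of 705 to 947 TMM-scaled CPM. Reads on Rn7sk, an abundant RNA polymerase III transcript, were 14575 ± 2159 and 7379 ± 751 CPM. The snRNA, scaRNA, miRNA, misc_RNA, rRNA and ribozyme genes under 500 bases were split by length too. Of these, 29 tested genes had under 100 bases, of which 1 was lower and 3 higher. At 100 bases or more, 40 of 107 were lower and 12 higher, against 25.6% and 26.4% of all genes tested. Most of the short ones, 25 of 29, were miRNA genes. Among miRNA genes, 1 of 25 short ones was lower and 3 higher, and 2 of 16 longer ones were lower and 3 higher. The longer ones that were higher include Snord43, which has a C/D symbol. The part of length in these counts was not tested.

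The place of the annotated snoRNA genes was set beside their reads. Of the 108 annotated C/D genes, 51 overlap an exon of another gene on the same strand, but none of the 35 C/D members does. For H/ACA genes these counts were 28 of 42 and 2 of 15. Of the 62 C/D genes with no read, 44 overlap such an exon, and of the 21 H/ACA genes with no read, 20 do. Such overlap was rarer among the genes with another name, at 135 of 1357 annotated, 124 of 1155 with no read and 2 of 102 members. The part of exon overlap in the reads was not tested. The annotated copies of U3, U14 and U22, which take part in the first cleavages of ribosomal RNA, overlap exons and had 0 to 4 reads, so nothing can be said of them here. At the edge of the read limit, Snord37 was inside with 20 reads and Snord66 outside with 19 reads.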

How the data were processed

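Poly(A) RNA was sequenced from 4 hNK and 4 teNK libraries with a stranded kit, per the labels' protocols. The authors deposited whole-number read counts per Ensembl gene, with no normalization. Per the submitters' processing notes, HISAT2 2.1.0, SAMtools and HTSeq were used with GRCm38. The strand setting and the handling of multiply aligned reads are not given in the sources used here, and both matter for intronic and repeated snoRNA genes. The 5 summary lines stayed out.

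GENCODE M21 (GRCm38) gave biotypes, positions and sequences. The host is the gene that encloses a member on the same strand, small RNA genes aside. Where several do, it is the one with the most reads. In R 4.3.3, edgeR 4.0.16 kept 13903 genes by group (filterByExpr), scaled them with TMM and tested teNK against hNK with the quasi-likelihood F test. The SE is the log2 fold change divided by the square root of F. Tables were made in Python 3.11.15, and the fit was tested on simulated data. DESeq2 1.42.0 and other alternatives are in the closing section. Members, lists and tests were chosen with earlier results of these data known. Named genes were the 6 C/D and 6 H/ACA members with the highest level per length, the 8 largest falls and 6 largest rises among called members whose mean log2 CPM was not below 0, members of hosts that hold at least 3 tested ones, the U3, U8, U13, U14, U17, U22 and Snora74 genes, and hosts of all these. Other members were named after their values were seen. The sequence of 1 named member is not reported here.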

Additional observations from a re-analysis of the deposited data

Results flagged for a closer look

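Within-group gaps were checked for the named members and the summed levels, over 58 groups of 4 libraries, and 5 had 1 library far from the others (gap over range above 0.829, which chance passes in about 5% of groups). In hNK 3, Snora31 had 0.495 CPM against 2.35 to 2.66 in the other hNK libraries, Snord15a 34 CPM against 63.0 to 67.8, and the C/D genes together 556 CPM against 1032 to 1100. The hNK 3 library was also low in the sum of all members. In teNK 1, Gm25989 had 0.856 CPM against 0.381 to 0.402. In teNK 2, Snord118 had 7.37 CPM against 10.1 to 10.5. The cause was not tested for any of them. Without hNK 3, 47 snoRNA genes were called lower and 5 higher.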

How the results depend on the processing

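No value called in the fit described or in an alternative changed sign. The count of snoRNA genes called lower was 44 under the fit described, 45 with DESeq2, 57 with no filter and 33 with libraries thinned to equal depth, and 40 to 48 with 1 library left out. Called higher were 7, against 4 with upper quartile scaling, 4 after thinning, 11 with no filter and 11 with genes kept at 20 reads or more, and 5 to 9 with 1 library left out. The unfiltered fit gave far smaller p-values, so the 20-read filter, chosen after seeing the data, was preferred for testing every member. C/D genes called higher were 3, against 1 with upper quartile scaling and 1 after thinning. With 1 library left out they were 1 to 5, namely 1 without teNK 1 and 5 without hNK 4 or teNK 3. H/ACA genes called higher were 1, against 2 with no filter, and 1 to 1 with a library left out. With the class read from box letters, also chosen after seeing the data, 33 H/ACA genes were lower and 3 higher. The summed C/D level was 2.33-fold lower in teNK, 2.13 to 2.65-fold with 1 library left out, and 1.13-fold without Snord17. The cause was not tested. Of 381 values of 24 named members under alternatives, 358 kept the call or the lack of one, 21 lost the call and 2 gained it, and those that changed belong to Snord104, Snord65 and Snord49b. The sign turned in 10 of the 358, all of Snord32a, Snord34 and Snord35a, which were not called, and Snord32a ranged down to -0.18 without hNK 1.

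Whether replicate numbers pair the samples cannot be settled from 4 libraries per group. Deviations of same-numbered libraries correlated at 0.04, -0.11, 0.15 and 0.02, and 2 of 4 hNK libraries correlated best with their own number. With the replicate block, 44 snoRNA genes were lower and 6 higher, and the call of Snord65 was lost (adjusted p = 0.0505). Depth limits the 67 members not tested, which had 20 to 88 reads in all, and the hNK libraries most.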
